A study of Mus musculus with 11 samples.

Results

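A set of 38 lysosomal genes was followed in sorted adrenocortical cells of fetal mice that lacked Star. The set was a fixed list, 38 of 17427 genes with a symbol on the array, and was chosen by function, with no measured value in the rule. It was drawn up with earlier results of these data known, so its counts beside the shares of all genes are a description. It held 9 proteases, 10 glycan-degrading enzymes (glycosidases and a sulfatase), 6 lipid hydrolases or lipid-handling proteins of the lumen, 5 membrane proteins, 6 parts of the proton pump, and the regulator Tfeb with the growth factor granulin, Grn. All 38 had a probe on the array, and all 38 passed the filter on dim signals, which asked that a probe be well above background on at least 4 of 11 arrays. Of the 38, 32 were above background on all 11 arrays.

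The study compared 4 knockout fetuses (Star-/-) with 7 wild-type fetuses (Star+/+), all at E17.5-18.5, late in gestation. Adrenal glands were dissociated, cells carrying enhanced green fluorescent protein were taken by flow cytometry, and total RNA of each mouse was amplified linearly before labelling with Cy3 and hybridisation to its own single-colour Agilent array. The sources used here do not give the promoter that drove this reporter. All 4 knockout mice were labelled male, and of the wild-type mice 3 were labelled male and 4 female. The protein made from Star brings cholesterol to the inner mitochondrial membrane, where steroid synthesis starts.

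Lysosomes are acidic compartments in which proteins, glycans and lipids delivered by endocytosis or autophagy are degraded. Their soluble enzymes work at low pH, which a multi-subunit proton pump, the vacuolar ATPase, maintains, and a coat of heavily glycosylated membrane proteins lines the organelle. In adrenocortical cells lysosomes release cholesterol from lipoprotein-derived esters, and Npc2 takes part in its exit. Macrophages are also rich in lysosomes. The transcription factor TFEB binds a DNA element with the core CACGTG in front of many lysosomal genes.

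The 11 arrays were on 3 slides. On slide 1 were wild-type arrays 1 and 2 and knockout arrays 1 and 2, all labelled male. Slide 2 held wild-type array 3, labelled female, with knockout arrays 3 and 4, and slide 3 held wild-type arrays 4 to 7. The fitted difference between genotypes, with slide as a term, therefore rests on 4 knockout and 3 wild-type arrays, and slide 3 adds to the estimate of the spread. The 75th percentile of the signal was between 115 and 706 per array, lowest in wild-type array 3, and this array also had the lowest median correlation with the others, 0.83. Wild-type array 4 was labelled female, but its levels of the Y-linked genes Ddx3y, Eif2s3y and Kdm5d, 0.18 to 2.70, lay in the range of the 7 arrays labelled male, −0.28 to 3.32, and far above those of the other 3 labelled female, −6.74 to −5.01. Of 2 further sex-linked genes, Uty stood at −3.39 in wild-type array 4 and at −6.68 in wild-type array 7, labelled male. Xist stood at −6.99 in wild-type array 4 and at −6.49 in wild-type array 6, labelled female, so neither followed the labels on every array. Results are given with and without wild-type arrays 3 and 4. Without wild-type array 3, slide 2 has no wild-type array, and the fitted difference is then that within slide 1. A level here is a log2 signal minus the 75th percentile of its array. Levels of different genes come from different probes and were not tested against each other. A sum of signals over genes is weighted by its brighter probes. How many arrays there are limits the precision.

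The transcript of Star was measured first as a check of the labels. Its level was 5.75 ± 1.82 in wild-type arrays (SD, n = 7) and 2.37 ± 0.73 in knockout arrays (SD, n = 4). The fitted difference was −4.70 ± 0.93 (SE) with a limma adjusted p of 0.0559, −4.37 within slide 1 and −5.20 within slide 2. The groups overlapped, since the lowest wild-type level was 3.21 and the highest knockout level 3.27. Where the probe lies relative to the deleted part of the gene is not known here.

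Most of the lysosomal genes had higher levels in the knockout arrays, and 6 of 38 passed the test across all genes. The 6 were the proteases Ctsd, Lgmn and Ctsz, the glycosidase Man2b1, the sphingolipid activator Psap and the sterol carrier Npc2, and all 6 were higher (limma, Benjamini-Hochberg adjusted p under 0.05 over 20741 genes and unnamed probes). Over all genes tested, 0.603% were called higher, 0.231% lower and 0.834% in either direction. At an unadjusted p under 0.05, 27 of the 38 were higher and 0 lower, against 8.39% of all genes higher. The fitted mean was higher for 37 of 38, with β-mannosidase, Manba, the exception, against 43.0% of all genes. The median difference over the 38 was 1.54 on the log2 scale, with a range from −0.05 to 3.94, and over all genes tested the median was −0.16. In these sorted bulk samples, a change in the number of cells of a type and a change in RNA per cell cannot be told apart.

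**Figure D1:**
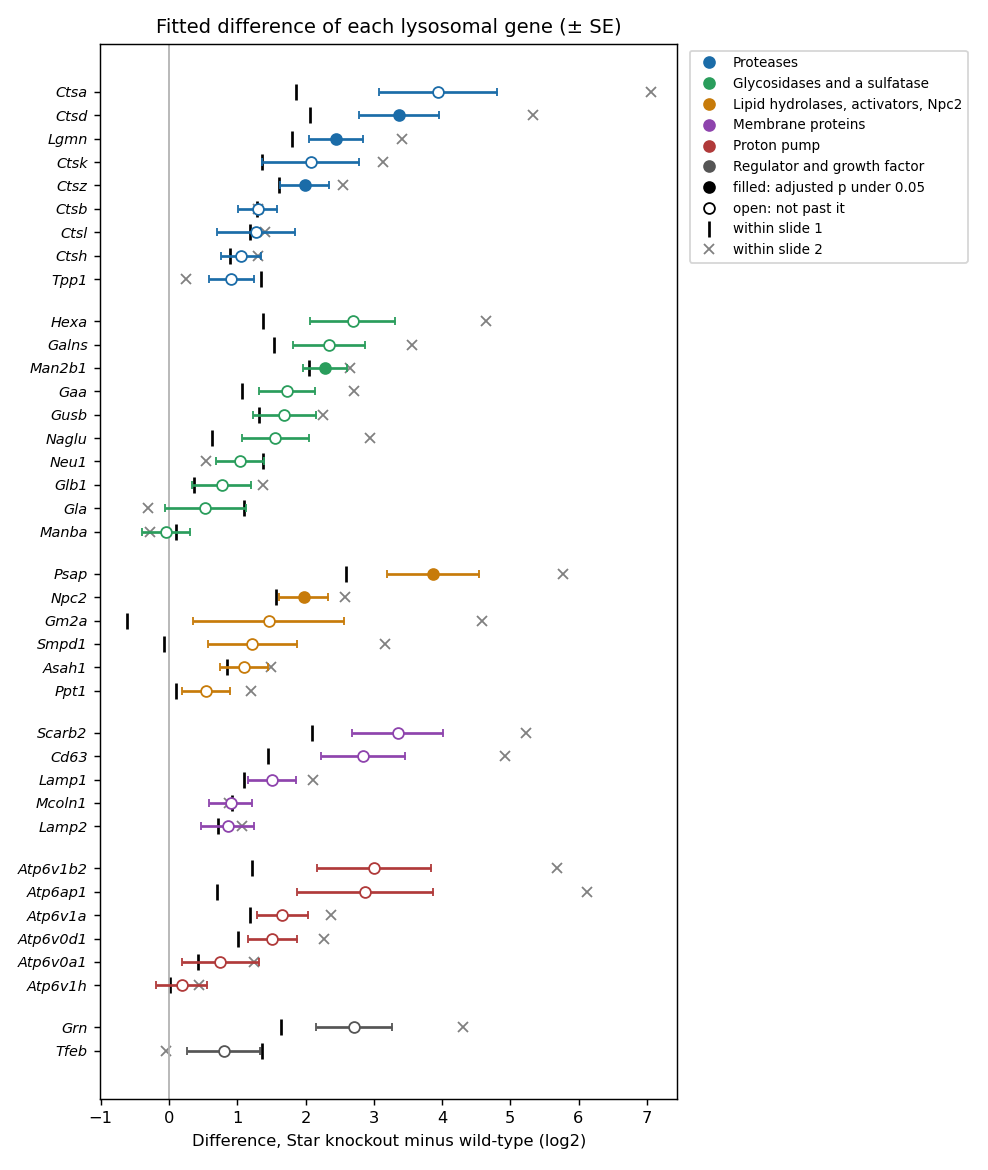
Fitted difference of each of the 38 lysosomal genes, Star knockout minus wild-type, on the log2 scale, with its SE, grouped by class. Filled points are the 6 genes past an adjusted p of 0.05; black bars and grey crosses give the difference within slide 1 and within slide 2, and for 32 of 38 genes the cross lies to the right of the bar.

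The direction was shared by both slides for most of the genes, and the size was not. Within slide 1, where all arrays were labelled male, the median difference was 1.20, against −0.06 over all genes, and 36 of 38 were higher. Within slide 2 the median was 2.46, against −0.33 over all genes, and 35 of 38 were higher. A total of 33 genes were higher within both slides, and 21 were over 2-fold higher within both. The difference within slide 2 was the larger for 32 of 38. That slide has a single wild-type array, number 3, which was the lowest wild-type array for 21 of the 38 genes. The difference between the slides was not tested.

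Every knockout array was above every wild-type array for 23 of 38 genes, against 4.12% of all genes. The count was 25 of 38 without wild-type array 3, against 5.21% of all genes, 24 without wild-type array 4, against 4.60%, and 26 without both, against 6.11%, and leaving out a wild-type array can only keep or raise such a count. The call of single genes depended on the arrays kept. Without wild-type array 1, 2 or 3, or without any 1 of the 4 knockout arrays, 0 of 38 genes passed the limma test, with 22 to 27 at an unadjusted p under 0.05, all higher. Calls over all genes also became few in these fits, and the fit without wild-type array 3 compares the genotypes within slide 1 only. Of all genes, 0.111%, 0.154% and 0.0434% were called higher without wild-type array 1, 2 and 3, and 0.0916%, 0.207%, 0.140% and 0.121% without knockout array 1, 2, 3 and 4. Without wild-type array 4, 13 passed, among them all 6, where 1.69% of all genes were called higher. Lgmn and Man2b1 passed without wild-type array 5 (0.492% of all genes called higher) and without array 6 (0.550%), and Man2b1 and Psap without array 7 (0.381%). With sex as a further term 0 of 38 passed in limma (25 at an unadjusted p under 0.05), where 0.121% of all genes were called higher. On slide 2 the wild-type array was labelled female and the knockout arrays male, so sex and genotype cannot be told apart there. With sex as a term and wild-type array 4 left out, 2 passed, Man2b1 and Psap, against 0.260% of all genes.

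**Figure D2:**
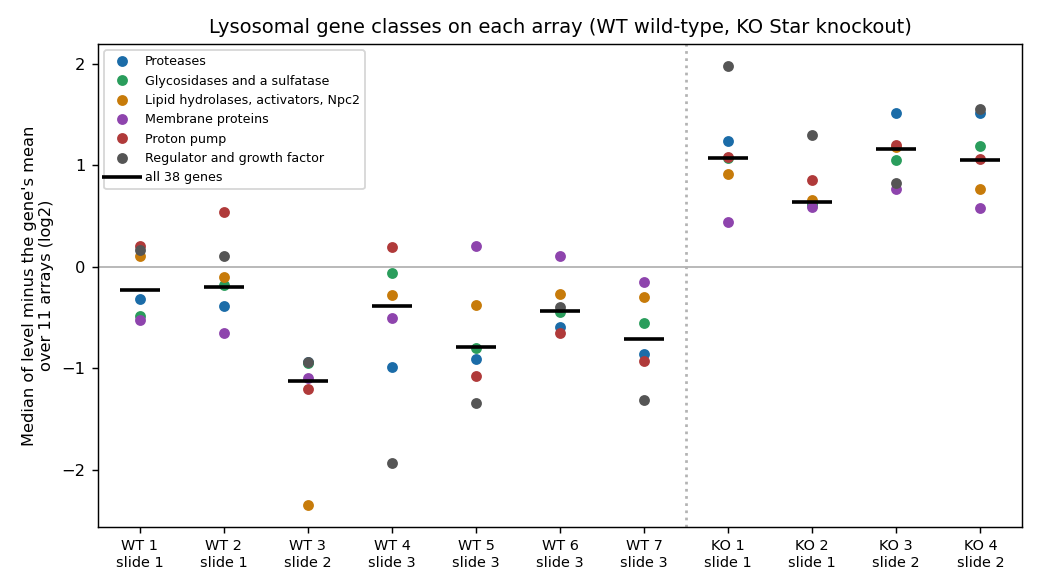
Median over the genes of each class of the level on an array minus that gene's mean over the 11 arrays (log2), for each wild-type (WT) and knockout (KO) array. The black bars give the median over all 38 genes, which lies between −1.13 and −0.20 on the 7 wild-type arrays and between 0.64 and 1.16 on the 4 knockout arrays.

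Markers of macrophages and these genes both had a higher summed signal in the knockout arrays, as the plot of macrophage marker and lysosomal gene signal shows. Of 24 macrophage and myeloid markers, 4 passed the test and were higher, Gpnmb, Cd5l, Trem2 and Spi1, against 0.603% of all genes called higher. A total of 22 had every knockout array above every wild-type array, against 4.12% of all genes. The median difference of the 24 was 3.04, with 1.84 within slide 1 and 5.19 within slide 2. The summed signal of the 22 markers with a value on every array, as multiples of the 75th percentile, was between 25.1 and 156 in wild-type and between 614 and 1090 in knockout arrays. The summed signal of the 38 lysosomal genes was between 550 and 910 in wild-type and between 1477 and 2282 in knockout arrays. Among wild-type arrays the marker sum was highest in array 1 and the lysosomal sum in array 6. Among knockout arrays both were highest in array 3. Such a sum is carried by its brightest probes, in knockout array 3 those of Ctsb, Ctsl, Ctsh and Ctsd, at levels of 8.86, 8.46, 8.32 and 8.13. Spi1 was above background on 0, Itgam on 1, Gpnmb on 2 and Cx3cr1 on 3 of 7 wild-type arrays, so these 4 met the filter on dim signals only with the knockout arrays. They hold 2 of the 4 calls and 3 of the 22 separate groups, while Trem2 and Cd5l were above background on all 11 arrays. Cd163 was lower in the fit, at −4.06, and did not pass. The part of macrophage RNA in the differences given here was not tested.

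**Figure D3:**
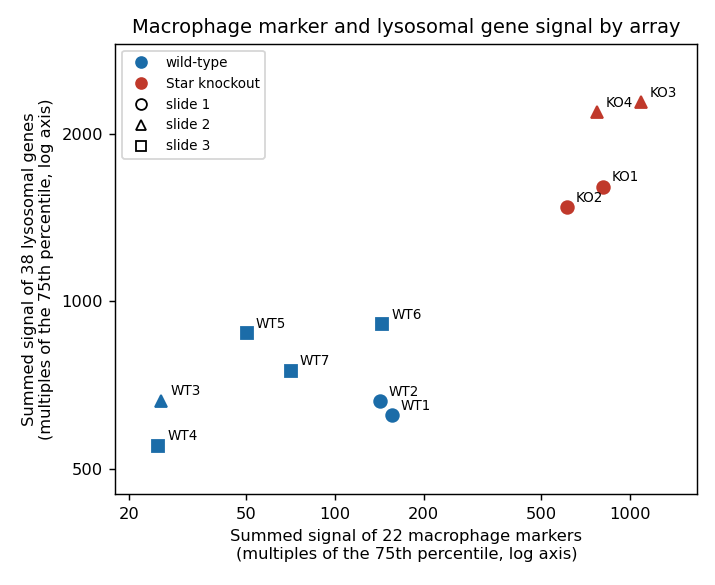
Summed signal of 22 macrophage and myeloid markers (horizontal, log axis) and of the 38 lysosomal genes (vertical, log axis) on each array, in multiples of the array's 75th percentile; colour gives the genotype and shape the slide. The 4 knockout arrays lie above every wild-type array on both axes, at 614 to 1090 and 1477 to 2282.

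Markers of the adrenal cortex had lower fitted means in the knockout arrays for 9 of the 9 tested, where 43.0% of all genes had a higher one. The differences ran from −5.58 to −0.23, with a median of −1.28, −1.47 within slide 1 and −0.21 within slide 2. Within slide 2, 3 of the 9 were higher. Of the 9, 1 passed, against 0.231% of all genes called lower. This was Nr0b1, a nuclear receptor of steroidogenic tissue, which fell by 5.58 on the log2 scale. Its limma adjusted p was 0.0275, and 0.340 without wild-type array 3. It had every knockout array below every wild-type array, a pattern of 3.24% of all genes. The cortical markers Nr5a1, Cyp11a1, Hsd3b1 and Mc2r were well above background on all 11 arrays, and Cyp21a1 on 3 wild-type and 3 knockout arrays. The 8 cortical markers with a value on every array had a summed signal of 177 to 2383 in wild-type and 228 to 775 in knockout arrays. Akr1b7 had the highest mean level of these in both groups, 8.75 and 8.25. Markers of chromaffin cells and sympathoblasts summed to 101 to 1978 and 5.44 to 148. On slides 1 and 2 the chromaffin sums were 187, 457 and 285 in wild-type and 78.0, 148, 115 and 5.44 in knockout arrays. Capsule and stroma markers summed to 320 to 2123 and 684 to 1519, and endothelial markers to 27.1 to 251 and 26.6 to 70.7. Erythroid markers summed to 65.8 to 186 and 64.3 to 96.6, and Schwann cell precursor markers to 1.22 to 19.4 and 8.71 to 10.1. Wild-type arrays 5 to 7 are on slide 3, which has no knockout array. They had the highest wild-type sums of chromaffin, stroma, endothelial and Schwann cell precursor markers. On slides 1 and 2 stroma markers summed to 592, 348 and 487 in wild-type and 856, 870, 1519 and 684 in knockout arrays. The part of these cells in the lysosomal values was not tested.

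The proteases had a median difference of 1.99 over 9 genes, with 1.37 within slide 1 and 2.56 within slide 2. All 9 had higher fitted means within both slides. Of them, 3 passed, against 0.603% of all genes called higher, and 6 had every knockout array above every wild-type array, against 4.12%. Ctsd encodes cathepsin D, an aspartic protease. Its level in wild-type arrays was lowest at 2.91 in array 3, had a median of 4.75 and reached 5.35, and in knockout arrays 1 to 4 it was 7.47, 7.19, 8.13 and 8.35. All 4 knockout arrays were above all wild-type arrays, and the 2 on slide 2 were the highest. The fitted difference was 3.37 ± 0.59 (SE; limma adjusted p = 0.0374), with 2.06 within slide 1 and 5.33 within slide 2. Without wild-type array 3 it was 2.06, the difference within slide 1, and the limma adjusted p was 0.140.

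Legumain, Lgmn, is an asparaginyl endopeptidase that also processes cathepsins. Its level ran from 2.32 to 4.22 in wild-type arrays, with a median of 3.14, and was 6.14, 5.84, 6.53 and 6.68 in knockout arrays 1 to 4. The groups were separate, with the highest wild-type values on slide 1. The difference of 2.45 ± 0.40 (SE; limma adjusted p = 0.0275) came from 1.80 within slide 1 and 3.42 within slide 2. Cathepsin Z, Ctsz, is a carboxypeptidase. It lay between 1.46 and 3.10 in wild-type arrays, with a median of 2.24, and at 4.80, 4.30, 4.86 and 4.66 in knockout arrays. Here too no arrays overlapped, and the difference of 1.99 ± 0.37 (SE; limma adjusted p = 0.0462) was 1.60 within slide 1 and 2.56 within slide 2. Without wild-type array 3 the adjusted p was 0.224 for Lgmn and 0.395 for Ctsz.

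The protease with the largest p was cathepsin L, Ctsl, a cysteine protease. It had wild-type levels from 5.93 to 8.36 with a median of 6.64, and knockout levels of 7.78, 7.72, 8.46 and 7.64. The groups overlapped, because wild-type arrays 5 to 7 of slide 3 were at 7.87 to 8.36, above most knockout arrays. Its difference was 1.28 ± 0.57 (SE; limma adjusted p = 0.271) and was alike within the slides, at 1.19 and 1.41. Of the other 5 proteases, protective protein cathepsin A, Ctsa, had the largest difference of all 38 genes, 3.94 ± 0.86 (limma adjusted p = 0.0730), but it was 1.86 within slide 1 and 7.06 within slide 2, where wild-type array 3 stood at −0.67. Ctsb and Ctsh, which encode further cysteine cathepsins, differed by 1.30 and 1.05 with every knockout array above every wild-type array. Ctsk, cathepsin K, was at 2.08 and tripeptidyl peptidase 1, Tpp1, at 0.92, with overlapping groups.

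**Figure D4:**
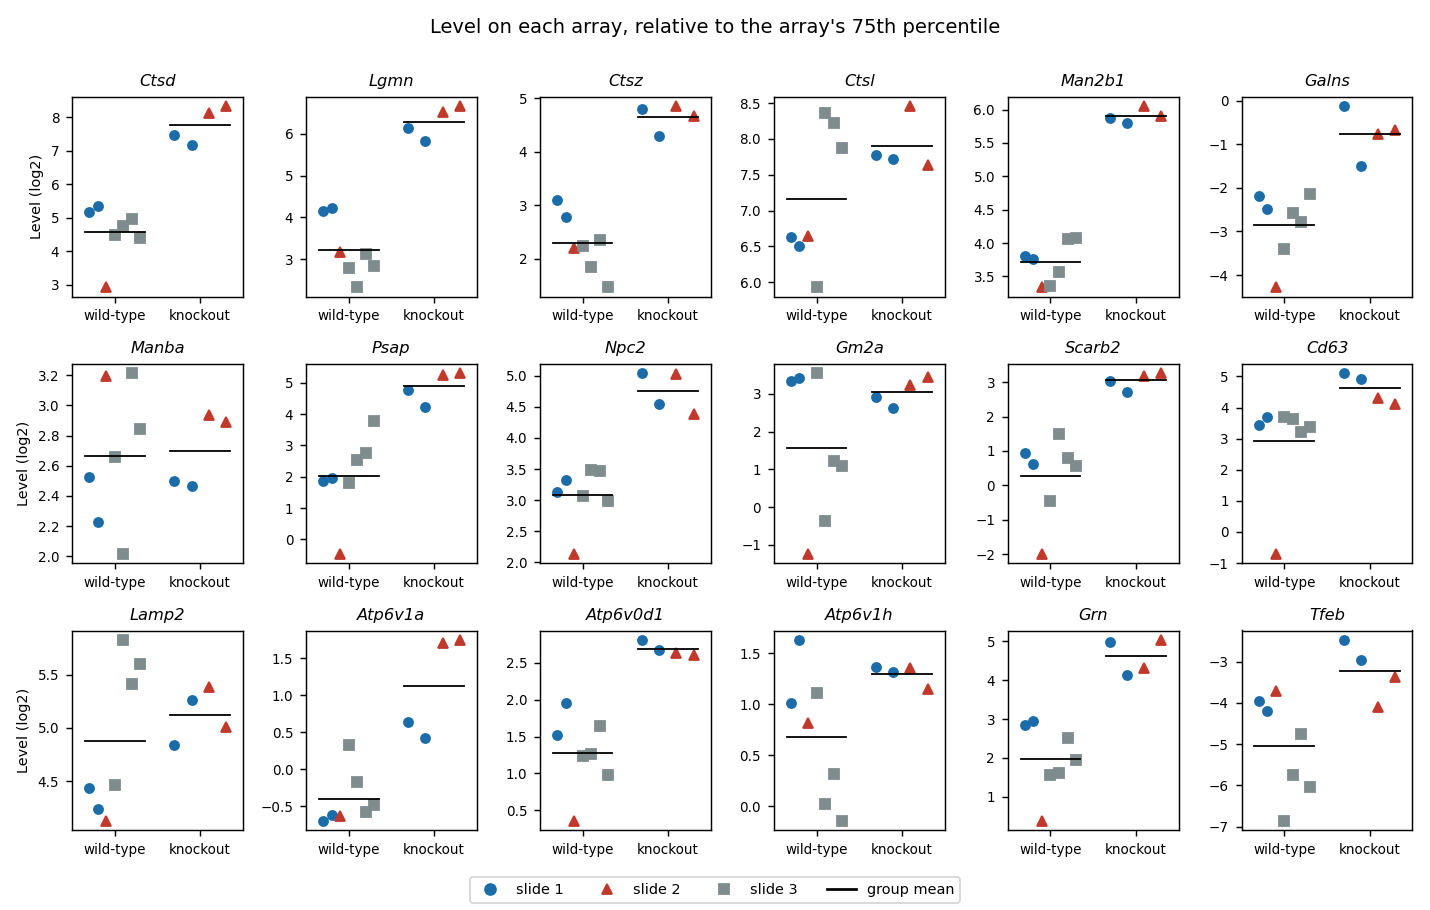
Level of 18 lysosomal genes on each array, as log2 signal minus the array's 75th percentile, with 7 wild-type and 4 knockout arrays per panel; colour and shape give the slide and the line the group mean. The 6 genes that passed the test, such as Man2b1 with 3.33 to 4.08 against 5.80 to 6.06, have separate groups, and Ctsl, Manba, Gm2a, Lamp2, Atp6v1h and Tfeb have overlapping ones.

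Glycan-degrading enzymes had a median difference of 1.62 over 10 genes, 1.20 within slide 1 and 2.45 within slide 2. Of the 10, 1 passed, against 0.603% of all genes called higher, and 9 had a higher fitted mean, against 43.0%. For 7 every knockout array was above every wild-type array, against 4.12% of all genes. Man2b1, the lysosomal α-mannosidase that trims N-linked glycans, had the smallest p of all 38 genes. It lay between 3.33 and 4.08 in the 7 wild-type arrays, with a median of 3.76, and at 5.88, 5.80, 6.06 and 5.91 in the knockout arrays. Both groups were tight, the 4 knockout arrays within an SD of 0.11 and the wild-type arrays within 0.31. The difference was 2.29 ± 0.32 (SE; limma adjusted p = 0.0189), 2.05 within slide 1 and 2.65 within slide 2. Without wild-type array 3 the adjusted p was 0.171.

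Galns, the sulfatase of the class, which acts on keratan sulfate, had the next smallest p. Its dim signal was at −4.28 to −2.15 in wild-type arrays, with a median of −2.59, and at −0.12, −1.50, −0.76 and −0.68 in knockout arrays. It was above background on 6 of 7 wild-type arrays, and the groups did not overlap. The difference of 2.35 ± 0.53 did not pass (SE; limma adjusted p = 0.0783). Manba, which cleaves β-linked mannose, was the gene without a higher fitted mean. It lay between 2.01 and 3.22 in wild-type arrays, with a median of 2.66, and at 2.50, 2.47, 2.94 and 2.89 in knockout arrays. Its knockout values fell inside the wild-type range, and the difference was −0.05 ± 0.35 (SE; limma adjusted p = 0.958), with 0.11 within slide 1 and −0.28 within slide 2.

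The other 7 enzymes of the class did not pass. Hexa, the α-subunit of β-hexosaminidase, was at 2.69, Gaa, the acid α-glucosidase that degrades glycogen, at 1.73, Gusb, β-glucuronidase, at 1.69, Naglu, which degrades heparan sulfate, at 1.56, and the sialidase Neu1 at 1.04, and each of these 5 had every knockout array above every wild-type array. The galactosidase genes Glb1, at 0.77, and Gla, at 0.53, had overlapping groups. Gla was 1.09 higher within slide 1 and stood at −0.31 within slide 2, where wild-type array 3 was at 2.61, the highest of all arrays.

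Lipid hydrolases and lipid carriers of the lumen were the class in which the slides differed most, with a median of 0.47 within slide 1 and 2.87 within slide 2, and 1.34 in the fit over 6 genes. Of the 6, 2 passed, against 0.603% of all genes called higher, and 3 had separate groups with the knockout arrays higher, against 4.12%. Psap encodes prosaposin, the precursor of the saposins that help enzymes reach sphingolipids. Its level in wild-type arrays was lowest at −0.48 in array 3, had a median of 1.98 and was highest at 3.79 in array 7, and in knockout arrays it was 4.78, 4.24, 5.26 and 5.33. All knockout arrays were higher than all wild-type arrays. The difference was 3.87 ± 0.67 (SE; limma adjusted p = 0.0372), 2.59 within slide 1 and 5.77 within slide 2. Npc2 is the soluble protein that binds cholesterol inside lysosomes. It lay between 2.13 and 3.49 in wild-type arrays, with a median of 3.14, and at 5.05, 4.55, 5.03 and 4.38 in knockout arrays. The groups were separate, and the difference was 1.98 ± 0.36 (SE; limma adjusted p = 0.0439), 1.57 within slide 1 and 2.58 within slide 2. Without wild-type array 3 the adjusted p was 0.307 for Psap and 0.372 for Npc2.

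Gm2a, the activator protein for ganglioside degradation, had the largest p of the lipid class and turned with the slide. It was 3.35 and 3.42 in the wild-type arrays of slide 1 and −1.25 in that of slide 2, with a median of 1.21 and a highest value of 3.56 over the 7, and 2.91, 2.61, 3.23 and 3.43 in the knockout arrays. The knockout arrays were close to each other, and the wild-type arrays spanned both sides of them. The difference was 1.46 ± 1.10 (SE; limma adjusted p = 0.498), −0.62 within slide 1 and 4.58 within slide 2. Acid sphingomyelinase, Smpd1, gave −0.07 and 3.16 within the same slides. Acid ceramidase, Asah1, was at 1.10 with separate groups, and palmitoyl-protein thioesterase, Ppt1, at 0.54 with overlapping ones.

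Among the 5 membrane proteins 0 passed (4 at an unadjusted p under 0.05, all higher, limma). Even so, 3 had every knockout array above every wild-type array. The shares of all genes were 0.603% called higher, 8.39% higher at that unadjusted p and 4.12% with every knockout array above. The median difference of the 5 was 1.51, with 1.10 within slide 1 and 2.11 within slide 2. Scarb2, also called LIMP-2, carries β-glucocerebrosidase to the lysosome and was the closest to the threshold among those of the 38 that missed it. It lay between −2.01 and 1.48 in wild-type arrays, with a median of 0.63, and at 3.04, 2.71, 3.17 and 3.28 in knockout arrays. The groups were separate, with a difference of 3.35 ± 0.66 (SE; limma adjusted p = 0.0559), 2.09 within slide 1 and 5.24 within slide 2. At the threshold, Ctsz was the last inside it, at an adjusted p of 0.0462 in limma, and Scarb2 the first outside.

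The tetraspanin Cd63 had the second smallest p of the class. Its wild-type levels were −0.72 in array 3 and at least 3.22 in the other 6, with a median of 3.46 and a highest value of 3.70, and its knockout levels were 5.12, 4.93, 4.30 and 4.11. The knockout arrays were higher throughout, and the difference was 2.84 ± 0.62 (SE; limma adjusted p = 0.0730), 1.45 within slide 1 and 4.93 within slide 2. Lamp2, a major glycoprotein of the lysosomal membrane, ran from 4.12 to 5.83 in wild-type arrays, with a median of 4.46, and was 4.84, 5.26, 5.38 and 5.01 in knockout arrays. Wild-type arrays 5 to 7 of slide 3, at 5.42 to 5.83, were above every knockout array. The difference was 0.86 ± 0.39 (SE; limma adjusted p = 0.275). A probe of another Lamp2 transcript gave −0.12, so the direction of Lamp2 was not the same for both probes. Lamp1, the related glycoprotein, was at 1.51 with separate groups, and the cation channel Mcoln1 at 0.90 with overlapping groups.

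Of the 6 proton pump genes, 0 passed (4 at an unadjusted p under 0.05, all higher, limma), and 3 had separate groups. The shares of all genes were 0.603% called higher, 8.39% higher at that unadjusted p and 4.12% with every knockout array above. The median difference of the 6 was 1.59, with 0.86 within slide 1 and 2.32 within slide 2. Atp6v1a encodes the catalytic subunit of the cytosolic part of the pump. It lay between −0.70 and 0.33 in wild-type arrays, with a median of −0.57, and at 0.64, 0.42, 1.71 and 1.75 in knockout arrays. The knockout arrays of slide 2 were the highest, and the difference was 1.66 ± 0.37 (SE; limma adjusted p = 0.0747). Atp6v0d1, a subunit of the membrane part, lay between 0.35 and 1.96 in wild-type arrays, with a median of 1.26, and at 2.82, 2.67, 2.64 and 2.61 in knockout arrays. Its 4 knockout values were almost equal, with an SD of 0.09, and all above the wild-type values. The difference was 1.52 ± 0.36 (SE; limma adjusted p = 0.0880).

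Atp6v1h, a regulatory subunit of the pump, had the largest p of the class. It ran from −0.15 to 1.63 in wild-type arrays, with a median of 0.82, and was 1.37, 1.31, 1.35 and 1.15 in knockout arrays, inside the wild-type range. The difference was 0.18 ± 0.38 (SE; limma adjusted p = 0.825). Atp6v1b2, another cytosolic subunit, was at 3.00 with separate groups, and the accessory protein Atp6ap1 at 2.87 with overlapping ones. Both rested largely on slide 2, with 1.21 and 0.70 within slide 1 against 5.68 and 6.12 within slide 2, where wild-type array 3 was at −5.20 and −5.33. The 2 probes of Atp6v0a1 gave 0.75 and −0.46.

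Grn encodes progranulin, a secreted growth factor that is also delivered to lysosomes. It lay between 0.37 and 2.95 in wild-type arrays, with a median of 1.95, and at 4.98, 4.12, 4.30 and 5.04 in knockout arrays. The groups were separate, and the difference of 2.71 ± 0.56 did not pass (SE; limma adjusted p = 0.0668), with 1.65 within slide 1 and 4.31 within slide 2. Tfeb, the transcription factor of lysosomal genes, was dim, above background on 2 of 7 wild-type and on all 4 knockout arrays, and is the one member that met the filter on dim signals only with the knockout arrays. It lay between −6.87 and −3.70 in wild-type arrays, with a median of −4.75, and at −2.47, −2.96, −4.10 and −3.38 in knockout arrays. Of its knockout values 3 were above every wild-type value. The difference was 0.80 ± 0.53 (SE; limma adjusted p = 0.439), 1.37 within slide 1 and −0.04 within slide 2.

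The spread among the knockout arrays was smaller than among the wild-type arrays for 35 of the 38 genes. The median SD was 0.29 over 4 knockout and 0.71 over 7 wild-type arrays, the latter from 3 slides in place of 2. Of 17 genes with several probes, 15 had the same direction on all of them, with Lamp2 and Atp6v0a1 as the exceptions.

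Promoters were examined because the members moved largely together and many lysosomal genes carry the TFEB element. RefSeq promoter windows of 300 bases on GRCm38.p6, from 250 before the start site to 50 after it, were matched by symbol for 32 of the 38 genes. The files of expression values use no genome coordinates. Each motif searched reads the same on both strands, and each shorter one lies within the longer. A gene with several promoters was counted once, when any of them held the motif. The full palindrome of the TFEB element, 10 bases long, was in 0 of 32 members, in 2 of 56 other lysosomal genes and in 0.370% of 27025 genes. TCACGTGA was in 6 of 32 members (18.8%), in 10.7% of the other lysosomal genes and in 1.12% of all genes. The core CACGTG was in 12 of 32 members (37.5%), in 17.9% of the other lysosomal genes and in 8.09% of all genes. The 12 were Ctsa, Ctsd, Ctsl, Lgmn, Gaa, Gla, Glb1, Naglu, Lamp1, Mcoln1, Atp6v0d1 and Atp6v1a.

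The 250 bases upstream of 4 of these genes show how the core is placed, with CACGTG in capitals. The 4 were chosen after their sequences and values were seen, as the called genes with the core, Ctsd and Lgmn, the gene with the most copies, Lamp1, and the gene with the largest difference, Ctsa. Ctsd (chr7:142387828-142388077, minus strand) has copies that begin 245 and 98 bases before the start site. Lgmn (chr12:102439093-102439342, minus strand) has a copy at 49 bases, Lamp1 (chr8:13158911-13159160, plus strand) has 4, at 61, 45, 28 and 15 bases, and Ctsa (chr2:164833523-164833772, plus strand) has one at 12 bases and another 5 bases past the start, outside the printed stretch. Ctsa and Lgmn each have a further promoter in the table, without the core.
Ctsd: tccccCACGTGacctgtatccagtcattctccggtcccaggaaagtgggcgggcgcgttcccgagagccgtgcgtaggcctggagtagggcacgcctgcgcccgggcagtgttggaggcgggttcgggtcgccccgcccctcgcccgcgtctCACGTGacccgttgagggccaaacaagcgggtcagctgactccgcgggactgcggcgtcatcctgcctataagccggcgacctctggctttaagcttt
Lgmn: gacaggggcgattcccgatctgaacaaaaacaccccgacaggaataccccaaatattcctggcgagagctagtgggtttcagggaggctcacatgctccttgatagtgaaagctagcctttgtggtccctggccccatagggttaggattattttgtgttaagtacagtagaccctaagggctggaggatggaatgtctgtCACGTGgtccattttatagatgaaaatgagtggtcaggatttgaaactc
Lamp1: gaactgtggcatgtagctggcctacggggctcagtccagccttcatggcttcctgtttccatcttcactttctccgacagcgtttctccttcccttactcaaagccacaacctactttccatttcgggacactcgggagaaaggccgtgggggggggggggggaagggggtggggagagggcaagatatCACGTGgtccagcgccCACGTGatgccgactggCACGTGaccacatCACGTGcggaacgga
Ctsa: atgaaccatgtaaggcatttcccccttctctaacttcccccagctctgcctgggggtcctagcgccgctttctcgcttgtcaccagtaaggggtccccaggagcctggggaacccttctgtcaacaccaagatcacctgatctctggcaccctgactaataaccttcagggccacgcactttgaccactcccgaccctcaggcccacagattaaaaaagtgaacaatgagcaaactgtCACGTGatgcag

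The median difference was 1.54 for the 12 members with CACGTG and 1.83 for the 20 without it, given as a description. Whether the core goes with the size of the difference was not tested. Of the 6 genes past the threshold, Ctsd and Lgmn held the core. A match says nothing about binding in these cells.

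Beyond the 38, other genes of lysosomes were taken from a list of 74, of which 72 were on the array and 70 were tested. Of the 70, 5 passed in limma, all higher, and 0 lower, against 0.603% of all genes called higher and 0.231% lower. At an unadjusted p under 0.05 in limma, 30 were higher and 3 lower, against 8.39% of all genes higher. The median difference of the 70 was 0.80, 0.66 within slide 1 and 0.94 within slide 2. Fitted means were higher for 56 and lower for 14, against 43.0% of all genes higher. Every knockout array was above every wild-type array for 26 and below for 2, against 4.12% and 3.24% of all genes. Of these 70, 3 met the filter on dim signals only with the knockout arrays, Galc, Atp6v0d2 and Rragd, and they hold 1 of the 5 calls and 3 of the 26. Cln3, a lysosomal membrane protein, rose by 2.08 ± 0.32 (SE; limma adjusted p = 0.0275), and the acid phosphatase Acp2 by 1.87 ± 0.35 (adjusted p = 0.0478). Without wild-type array 3 the adjusted p was 0.224 for Cln3 and 0.395 for Acp2.

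Among the 5 were 2 further subunits of the pump, both known from osteoclasts and macrophages. Tcirg1, an a-subunit, lay between −0.47 and 0.54 in wild-type arrays, with a median of 0.32, and at 2.64, 1.99, 3.57 and 3.65 in knockout arrays. It rose by 2.89 ± 0.43 (SE; limma adjusted p = 0.0230; 0.125 without wild-type array 3). Atp6v0d2, a d-subunit, did not exceed background clearly in the wild-type group, with 0 of 7 arrays well above it, and was at 0.19, −1.40, −0.70 and −1.34 in knockout arrays. Its level there was at least 9.98-fold higher over slides 1 and 2, a bound that sets each wild-type signal to the lowest signal above background on its array or to its own where that was higher (limma adjusted p = 0.00453; 0.0183 without wild-type array 3). The p rests on wild-type signals that were not well above background. Atp6v0d1, the d-subunit among the 38, was well above background on all 7 wild-type arrays. Of the relatives of Tfeb, named after their values were seen, Tfec was at 3.10 (limma adjusted p = 0.0730), Tfe3 at 1.21 and Mitf at 0.57, and none of these 3 passed.

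How many of the 38 genes were called varied with the fit, as the plot of counts by setting shows. Some fits with all 11 arrays called more. Of the 38, 15 passed without the slide term, where 2.20% of all genes were called higher, and 14 with slide as a random block (1.73%). With normexp background correction 13 passed (2.12%), and 16 among genes above background on all 11 arrays (1.80%). With a trended and robust variance 10 passed (0.752%), and 26 with array weights (5.96%). All 6 were among those called in each of these fits. Other fits with all 11 arrays called fewer. Scaled to the array median 2 passed, Lgmn and Man2b1, with 65 of 20741 genes and probes called higher. Without the filter on dim signals 4 passed (99 of 33224). With replicate number as a block 1 passed, Man2b1 (117 of 20741), and with sex as a term 0 (25 of 20741). On slides 1 and 2 only, 6 passed (1.67%), with Scarb2 in the place of Ctsd. Within slide 1 alone and within slide 2 alone 0 passed in limma (28 and 26 at an unadjusted p under 0.05, all higher), and 0 of all 20741 genes and probes passed there. On male arrays only 0 of the 38 passed in limma (27 at an unadjusted p under 0.05), with 9 of the 20741 called higher. Among the male arrays only slide 1 holds both genotypes, so the difference in that fit is the one within slide 1.

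**Figure D5:**
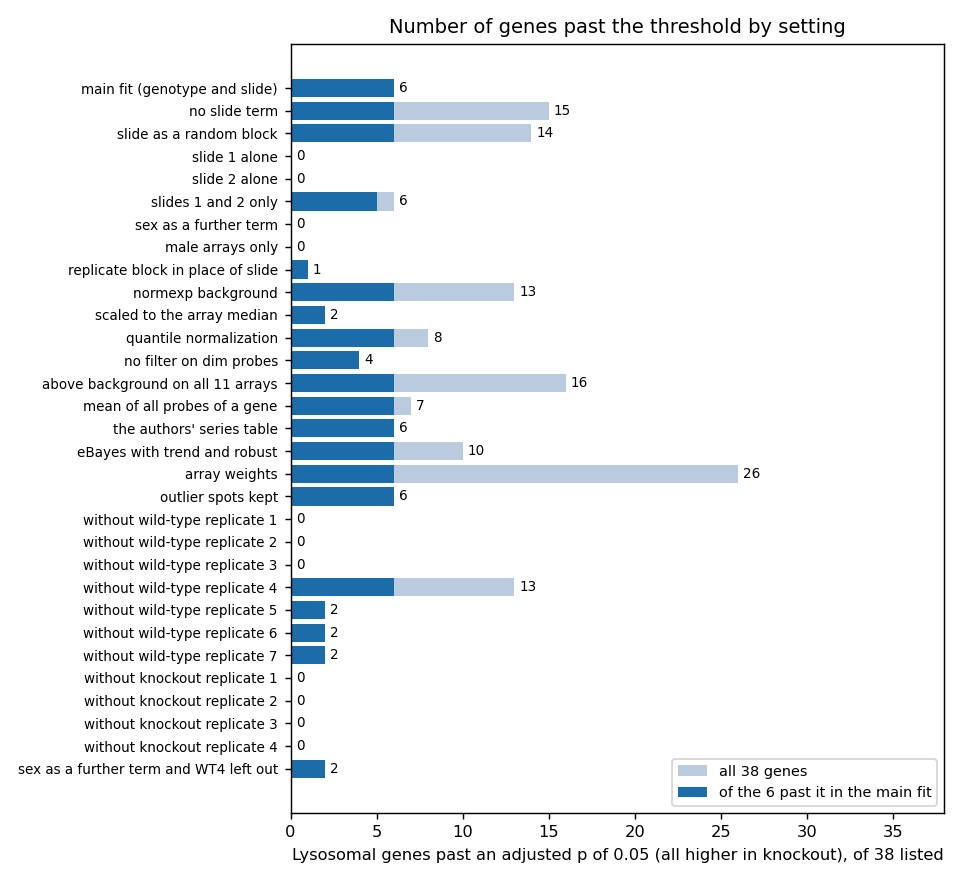
Number of the 38 lysosomal genes past an adjusted p of 0.05 under the main fit and 30 alternatives; the dark part counts the 6 genes called in the main fit. The count runs from 0 to 26, and it is 0 within slide 1, within slide 2, with sex as a further term, on male arrays only and without any 1 of 7 single arrays.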

How the data were processed

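Gene expression was measured on 11 single-colour Agilent arrays, 1 mouse each, of sorted adrenocortical cells. The labels gave genotype, sex, age and replicate number; the slide was read from the array identity, per the file headers. The deposited scanner files hold spot intensity, and Feature Extraction had subtracted background from the processed signal, per the file headers. Slides 1 and 2 carry its version 10.1.1.1 and slide 3 version 10.5.1.1, the one version in the submitters' processing notes. The series table deposited by the authors is in log2 units, and its scaling is not stated in the labels. Its columns equal the levels used here after subtraction of each probe's median, within 0.01 for at least 99.8% of the probes of each array; the medians of its columns run from −0.166 to 0.901. The number of deposited sample columns that could not be mapped was 0.

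Of 45018 spots, 43379 were not controls; 77 to 164 outlier spots per array were left out, and 0 were saturated. Probes, 41174 in all, were named through their accession and RefSeq on GRCm38.p6 (25377 probes, 17427 genes). The files' names differed between design versions for 4695 spots, and the most frequent matched accession was used. A gene was read from its probe with the highest mean. Between 19071 and 26416 probes per array were well above background.

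Genotypes were compared with limma 3.58.1 (lmFit, eBayes; R 4.3.3) on levels (log2 processed signal relative to the array's 75th percentile), with terms for genotype and slide and 7 residual degrees of freedom, two-sided, Benjamini-Hochberg over all 20741 genes and unnamed probes, threshold 0.05. The procedure was tested on simulated data. Values are given for every array for genes past the threshold and, per class, the 2 smallest and the largest p. The genes, marker lists and tests were chosen with earlier results of these data known. Promoters with the longest motif were to be printed; none had it, so 4 with the core are shown. Protein sequences were not used here. Alternatives concerned slide, sex, replicate number, background (normexp on median spot signals, offset 50, since mean signals are not among the columns), scaling, dim probes, probe choice, the series table, variance, weights, outlier spots kept, and leaving out each array in turn. The alternative with sex as a term and wild-type array 4 left out, and the motif TCACGTGA, were chosen after seeing the data. statmod 1.5.0, pandas 2.3.3, numpy 2.4.6 and matplotlib 3.10.9 were used. One gene of the wider lysosomal list is counted but not reported here by name.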

Additional observations from a re-analysis of the deposited data

Results flagged for a closer look

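Of 76 groups of levels, the 7 wild-type and the 4 knockout values of each of the 38 genes, 11 held an array far from the rest by Dixon's ratio of gap to range. Chance alone flags about 1 in 20 groups. Of the 11, 10 concerned wild-type array 3, which has no other wild-type array beside it on slide 2. It was the lowest wild-type array by a wide gap for Ctsa at −0.67 (the nearest was 3.28), Cd63 at −0.72 (3.22), Atp6ap1 at −5.33 (−1.94), Smpd1 at 1.25 (4.07), Hexa at 1.18 (3.32), Ctsd at 2.91 (4.40), Gaa at −1.04 (0.28) and Npc2 at 2.13 (2.99). It was the highest for Ctsb at 7.57 (6.82) and Tpp1 at 6.47 (5.29). The remaining one was knockout array 3 for Ctsl, at 8.46 (7.78). Each value of wild-type array 3 enters the difference within slide 2 in full, and the report gives the difference within slide 1 beside it.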

How the results depend on the processing

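Of 1134 pairs of a gene and one of 30 alternatives, 951 kept direction and side of the threshold, 94 lost the call, 69 gained it and 20 turned direction, in 6 genes. The number of the 38 past the threshold, 6 in the fit reported, was 15 without the slide term, 14 with slide as a random block, 0 within slide 1, 0 within slide 2, 0 with sex as a term, 2 with sex and wild-type array 4 left out, 0 on male arrays only, 13 with normexp, 2 scaled to the array median, 4 without the filter, 16 among genes above background on all 11 arrays, 10 with trend and robust, 26 with array weights and 0 to 13 with each array left out. For the other lysosomal genes, 5 in the fit reported, the count was 16 without the slide term, 12 with the random block, 0 within each slide, 11 on slides 1 and 2 only, 1 with sex, 3 with sex and wild-type array 4 left out, 0 on male arrays, 15 with normexp, 2 scaled to the median, 10 above background on all arrays, 28 with weights and 1 to 14 with each array left out. Calls over all genes changed with the setting too. Of 20741 genes and probes, 125 were called higher in the fit reported, 456 without the slide term and 358 with the random block. It was 347 on slides 1 and 2 only, 439 with normexp, 65 scaled to the median, 156 with trend and robust and 1237 with weights. With sex 25 were called higher, with sex and wild-type array 4 left out 54, on male arrays 9, and with each array left out 9 to 351. Without the filter it was 99 of 33224, and above background on all arrays 225 of 12482. The median over the 38 was 1.20 within slide 1 and on male arrays, 2.46 within slide 2 and 1.20 to 1.82 with each array left out. The median of all genes was −0.29 with normexp, against −0.16.

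With replicate number as a block in place of slide, 1 of the 38 passed, Man2b1, and 2 of the other lysosomal genes, and Manba was at 0.048. The numbers were not established as pairs: same-numbered arrays correlated at 0.18, 0.22, −0.0077 and 0.18 in their deviations from the group means.

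Manba turned to 0.030 without slide, 0.0029 with the random block, 0.11 within slide 1 and on male arrays, 0.078 with normexp, 0.075 with quantile normalization, 0.12 with weights, and −0.16 to 0.11 with each array left out. Gm2a turned to −0.62 within slide 1 and on male arrays and −0.29 with weights, and ran from −0.62 to 2.06 with each array left out. Smpd1 turned to −0.071 within slide 1 and on male arrays (−0.071 to 1.60 with each array left out), Gla to −0.31 within slide 2, Atp6v1h to −0.0033 with weights, and Tfeb to −0.041 within slide 2 and −0.12 with normexp. The cause was not tested.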

Other observations

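A small group of other lysosomal genes had lower means in the knockout arrays. Hgsnat, the acetyltransferase that takes part in heparan sulfate degradation, lay between 3.23 and 4.79 in wild-type and between 2.62 and 3.19 in knockout arrays, with a difference of −1.27 ± 0.34 (SE; limma adjusted p = 0.116), −0.90 within slide 1 and −1.83 within slide 2. Arsb, the arylsulfatase of dermatan sulfate, lay between −2.17 and −0.61 in wild-type and between −3.06 and −2.23 in knockout arrays, with a difference of −1.54 ± 0.44 (SE; limma adjusted p = 0.124). These were the 2 with every knockout array below every wild-type array, a pattern of 3.24% of all genes tested, and neither passed. They were named after their values were seen. Hyal1, a hyaluronidase of the same class, was at 3.29.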
